A study of Mus musculus with 115 samples.

Results

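The nuclear-encoded oxidative phosphorylation genes were taken by name from the deposited expression table of mouse prostate tissue labelled as tumor. They were the protein-coding genes on chromosomes 1 to 19 whose GENCODE M21 name starts with Ndufa, Ndufb, Ndufc, Ndufs, Ndufv, Uqcr, Cox4, Cox5, Cox6, Cox7, Cox8 or Atp5, or equals Sdha, Sdhb, Sdhc, Sdhd or Cyc1, with the Ndufaf assembly factors left out. The rule met 84 genes of that annotation, of which 83 were among the 45699 genes of the table. The other gene, which carries the name Atp5o a further time, was not analysed here. The members encode subunits of complex I (34 genes), complex II (4), complex III (9), complex IV (19, with Ndufa4 and Ndufa4l2 counted here) and complex V (17).

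Oxidative phosphorylation takes place at the inner mitochondrial membrane. Complexes I and II pass electrons from NADH and succinate to ubiquinone, complex III hands them to cytochrome c, complex IV reduces oxygen, and complex V, the ATP synthase, makes ATP from the proton gradient that complexes I, III and IV build. A few subunits of complexes I, III, IV and V are encoded by mitochondrial DNA and all others by the nucleus. Several complex IV subunits have tissue-specific isoforms, such as Cox6a2, Cox7a1 and Cox8b of heart, skeletal muscle and brown fat. Normal prostate epithelium is known for secreting citrate instead of oxidising all of it.

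The bulk RNA-seq libraries came from tissue of (TRAMP x WSB/EiJ) F2 males, all labelled prostate tumor tissue and transgene positive, with no treatment and no control group. TRAMP mice carry SV40 T antigen under a minimal probasin promoter, which is active in androgen-responsive prostate epithelium, so every mouse carried the same oncogene and each F2 mouse its own mix of C57BL/6 and WSB/EiJ alleles. The study's methods state a smaller number of RNA samples than there are libraries here, the labels do not tell which are the further ones, and each library was taken as 1 mouse. Per the study's methods the males were kept to a set age or to a humane endpoint, and small prostates were sampled at the ventral lobe. The study used organ weight as tumor burden without checking by pathology that tumor was present. Each library is therefore bulk tissue that may mix tumor and other cells in unknown shares. Ages at death were not used here.

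Values are in TPM, an expression unit scaled to a fixed total per library and per transcript length, so levels can be set beside each other between genes. The first principal component of the 14623 genes that averaged 1 TPM or more held 48.7% of their variance. It separated the libraries into 79 and 36, and slopes were fitted within each of these sets and never between them. Neither set is a group of the study. The prostate luminal markers (Tgm4, Hoxb13, Krt8, Msmb and others) summed to 351 to 60882 TPM in the 79 libraries and to 39.4 to 2746 TPM in the 36, and the neuroendocrine markers (Chga, Insm1, Scg2 and others) to 1.30 to 60.4 TPM and 42.8 to 909 TPM. The label prostate tumor tissue thus covered libraries with prostate markers near their floor. The highest luminal sum was that of library W5005, where Spink1 of this list alone had 57154 TPM and Tgm4 had 517 TPM. Mki67, a marker of dividing cells, ran from 0.39 to 25.7 TPM (median 4.23) in the 79 and from 20 to 144 TPM (median 83.5) in the 36. Tgm4, a secreted prostate transglutaminase, ran from 0.64 to 16895 TPM in the 79, in a low mode of 20 and a high mode of 59 libraries, and from 0.77 to 2469 TPM in the 36.

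Some libraries stood apart. W4078 held the highest level of 68 of the 83 members (58 after rescaling without the 20 most abundant genes), against 1005 (6.87%) of the 14623 genes that averaged 1 TPM or more. The median member was 3.20 times its median library there, where the median gene was at 1.28 times. Its adipocyte markers summed to 4368 TPM, the highest of any library, with Ucp1 of brown fat at 281 TPM where the median library had 0.09 TPM, and its skeletal muscle markers summed to 4268 TPM. Libraries W5000 to W5005 carried testis germ cell transcripts, up to 266 TPM in sum, where no library of the 36 was above 1.21 TPM, and their Mki67 lay between 0.39 and 0.93 TPM. The slopes in the 79 libraries were fitted again without W4078, without W5000 to W5005 and, after rescaling, without all 7, and counts of members that changed are given beside the first ones, while whether admixed tissue contributes to the member levels was not tested. In bulk tissue, fewer cells of a type and less RNA per cell cannot be told apart.

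Most members were abundant. Of the 83, 76 were at 1 TPM or more in every library, and the 3 with a mean below 1 TPM were Cox4i2, Cox7b2 and Cox8c. Summed over members, the level ran from 3962 to 27942 TPM with a median of 9016 TPM, 0.902% of the total. W4078 held the top value, and the next library had 15417 TPM. W5005 and W5000 held the 2 lowest sums. The 20 most abundant genes were 1 list for all libraries, those with the highest mean TPM. Rn7s1, Rn7s2 and Rn7sk led this list, and the comparator Tgm4 was in it. These genes took 48.9% to 81.8% of a library's TPM (median 66.3%). With them left out, the members took 1.55% to 5.78% (median 2.67%). The standard deviation of log2(TPM + 1) over the libraries had a median of 0.46 over the 80 members that averaged 1 TPM or more and 0.63 over all 14623 such genes, and 0.34 against 0.69 after the rescaling. Within the sets the difference was smaller: in TPM it was 0.44 for both in the 79 libraries and 0.43 against 0.50 in the 36, and after the rescaling 0.28 against 0.41 and 0.34 against 0.55.

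**Figure D1:**
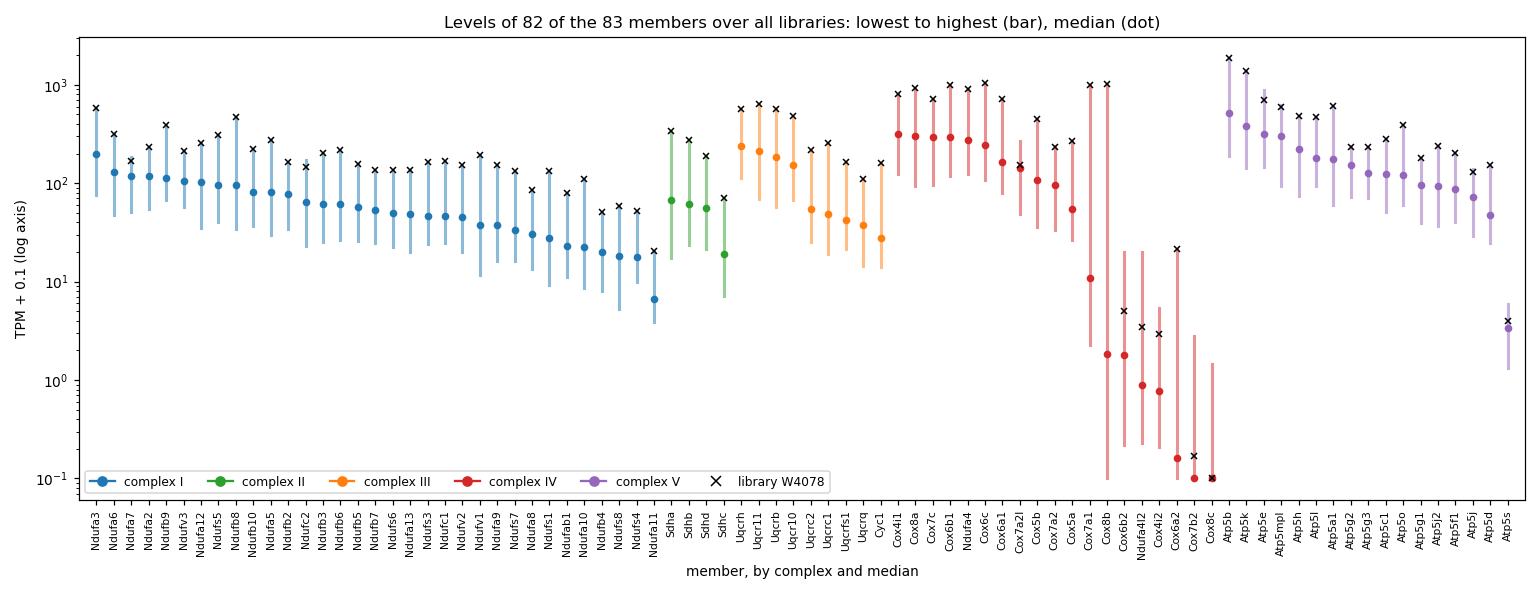
Level of 82 of the 83 members over all libraries, on a log axis of TPM + 0.1, with a bar from the lowest to the highest library, a dot at the median and a cross at library W4078. Atp5b has the highest median (523 TPM), and the long bars include those of the isoforms Cox8b, Cox7a1, Cox6a2, Ndufa4l2 and Cox6b2.

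The complexes differed in level. The median over a complex's members of their median TPM was 53.7 TPM for complex I, 59.1 TPM for complex II, 54.2 TPM for complex III, 96.2 TPM for complex IV and 128 TPM for complex V. In complex I, the highest member was Ndufa3, an accessory subunit, at 75.3, 198 and 576 TPM for the lowest, median and highest library. The lowest was Ndufa11, at 3.80, 6.53 and 20.3 TPM. In complex II, the flavoprotein Sdha ran from 17.4 to 341 TPM with a median of 68.04 TPM, and the membrane anchor Sdhc from 7.01 to 70.3 TPM with a median of 19.1 TPM. The succinate dehydrogenase subunits, made as 1 enzyme, were thus not at equal transcript levels.

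In complex III, the hinge protein Uqcrh had 111.9, 238 and 564 TPM for the lowest, median and highest library, and Cyc1, the cytochrome c1 subunit, had 14.1, 27.5 and 159 TPM. In complex IV, the core nuclear subunit Cox4i1 had 125, 319 and 806 TPM, the highest median of the complex, while Cox8c, a testis isoform, reached 1.37 TPM and stood at 0 in 100 libraries. In complex V, Atp5b, the catalytic beta subunit (chr10:128083273-128090391, + strand, GRCm38), had 188, 523 and 1862 TPM, and Atp5s, the coupling factor B, had 1.23, 3.25 and 5.87 TPM. Ndufab1, the mitochondrial acyl carrier protein, had a median of 23.1 TPM, and its value is uncertain because Gm4459, a copy of 99.7% identity, was listed with up to 32.9 TPM.

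The isoforms of complex IV carried the widest ranges, and each tissue isoform lay far below its ubiquitous counterpart in most libraries. Cox8b reached 1017 TPM with a median of 1.74 TPM and 11 libraries at 0, whereas Cox8a ran from 94.5 to 920 TPM with a median of 302 TPM. Cox7a1 had 2.17, 10.7 and 996 TPM and its counterpart Cox7a2 33.6, 96.2 and 241 TPM. Cox6a2 reached 21.6 TPM with 46 libraries at 0, against 79.2, 165 and 709 TPM for Cox6a1. Cox7a1 exceeded Cox7a2 in 8 libraries, Cox8b exceeded Cox8a in 1 library, W4078, and Cox6a2, Cox6b2 and Ndufa4l2 exceeded Cox6a1, Cox6b1 and Ndufa4 in 0 libraries.

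The promoters of Cox8a and Cox8b and of Cox7a2 and Cox7a1 are shown because these isoforms of the same subunit differed widely in range. Cox6a2, whose range differed widely from that of Cox6a1 too, has no promoter entry in the RefSeq table. They are the 250 bases before the transcript start in RefSeq on GRCm38.p6, written 5′ to 3′ on the strand of the gene, at chr19:7217617-7217866 (- strand) for Cox8a, chr7:140900447-140900696 (- strand) for Cox8b, chr9:79759854-79760103 (- strand) for Cox7a2 and chr7:30183921-30184170 (+ strand) for Cox7a1. Capitals mark matches on either strand to CCAAT (read as ATTGG where it lies on the other strand) or to the E-box CAGCTG of myogenic factors.
Cox8a: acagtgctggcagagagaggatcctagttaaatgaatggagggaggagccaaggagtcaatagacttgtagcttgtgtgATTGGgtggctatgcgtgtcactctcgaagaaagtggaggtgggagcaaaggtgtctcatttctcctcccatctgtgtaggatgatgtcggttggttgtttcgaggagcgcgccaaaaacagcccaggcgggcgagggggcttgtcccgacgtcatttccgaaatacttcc
Cox8b: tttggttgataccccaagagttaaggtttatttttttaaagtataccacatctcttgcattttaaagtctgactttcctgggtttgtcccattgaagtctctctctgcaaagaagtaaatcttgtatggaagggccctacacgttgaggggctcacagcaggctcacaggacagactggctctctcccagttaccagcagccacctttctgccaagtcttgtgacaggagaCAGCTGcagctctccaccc
Cox7a2: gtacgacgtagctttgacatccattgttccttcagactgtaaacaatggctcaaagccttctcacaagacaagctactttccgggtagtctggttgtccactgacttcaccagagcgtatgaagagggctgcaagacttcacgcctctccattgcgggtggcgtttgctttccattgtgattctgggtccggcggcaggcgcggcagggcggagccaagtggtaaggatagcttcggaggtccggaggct
Cox7a1: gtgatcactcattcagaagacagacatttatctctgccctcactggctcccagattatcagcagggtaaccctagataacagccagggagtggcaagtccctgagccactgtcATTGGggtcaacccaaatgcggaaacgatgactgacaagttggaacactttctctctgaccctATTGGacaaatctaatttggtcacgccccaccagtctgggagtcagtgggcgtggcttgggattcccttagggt

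With the 50 bases after the start included, the windows of Cox8a and Cox7a2 held 19 and 20 CpG dinucleotides and those of Cox8b and Cox7a1 held 2 and 7. RefSeq had a promoter entry for 66 of the 83 members. Their median was 19 CpG, against 8 over the 27025 genes with an entry and 22 over the 10239 of these that were tested. Searched on both strands, the YY1 letters AAGATGGCG were in 10.6% (7) of the 66 member windows, in 1.64% of all windows and in 3.43% of those of tested genes. The consensus of NRF1 was in 7.58% (5 members), 1.07% and 2.26%. The estrogen-related receptor letters TCAAGGTCA were in 3.03% (2 members), 0.466% and 0.352%. The GABPA letters CCGGAAGT were in 7.58%, 4.31% and 8.80%, CCAAT in 42.4%, 41.1% and 42.8%, CAGCTG in 9.09%, 18.3% and 18.3%, and TATAAA in 10.6%, 15.7% and 9.09%. These are counts of letters in a fixed window and say nothing about binding.

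Across the 79 libraries the tissue isoforms moved with markers of other tissues. Cox8b on the log2(TPM + 1) scale correlated with the mean z-score of the adipocyte markers with r = 0.81 and rho = 0.79 (permutation test, both adjusted p = 2.22e-05 over 20 such relations, from the smallest p that the permutations can give), and r was 0.78 without the 2 farthest libraries. Cox7a1 had r = 0.66 and rho = 0.60 with the adipocyte index, and r = 0.59 and rho = 0.67 with the skeletal muscle index (adjusted p = 2.22e-05 each, permutation test). Cox6a2 had r = 0.98 and rho = 0.55 with the skeletal muscle index (adjusted p = 2.22e-05 each, permutation test). With the adipocyte index, Cox6a2 had r = 0.12 and rho = 0.061 (adjusted p = 0.288 and 0.595, permutation test). Without the 2 farthest libraries r was 0.97 for Cox6a2 with muscle and 0.60 for Cox7a1 with adipocytes. Without W4078 and W5000 to W5005 it was 0.83 for Cox8b and 0.67 for Cox7a1 with adipocytes, and 0.97 for Cox6a2 and 0.49 for Cox7a1 with muscle.

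The libraries at the top of each isoform were few. Cox8b was at 1017 TPM in W4078, 315 TPM in W4216, 198 TPM in W4422 and 164 TPM in W4126, whose adipocyte markers summed to 1082 TPM or more against a median of 143 TPM in the 79. Cox6a2 was highest in W4078 (21.6 TPM), W242 (21.2 TPM), W4443 (19.5 TPM) and W5001 (19.3 TPM), whose skeletal muscle markers summed to 3483 TPM or more against a median of 115.1 TPM. Ndufa4l2, the hypoxia-inducible relative of Ndufa4, ran from 0.13 to 20.1 TPM with a median of 0.80 TPM and had r = 0.85 and rho = 0.83 with the endothelial index in the 79 libraries (adjusted p = 2.22e-05 each, permutation test). In the 36 libraries that relation had r = 0.36 and rho = 0.49 (adjusted p = 0.0394 and 0.00592, permutation test) and r = 0.30 without the 2 farthest libraries. Cox6a2 had r = 0.87 with the skeletal muscle index in the 36 (adjusted p = 3.45e-04, permutation test) and 0.36 without the 2 farthest, so that this value rested on those libraries.

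**Figure D2:**
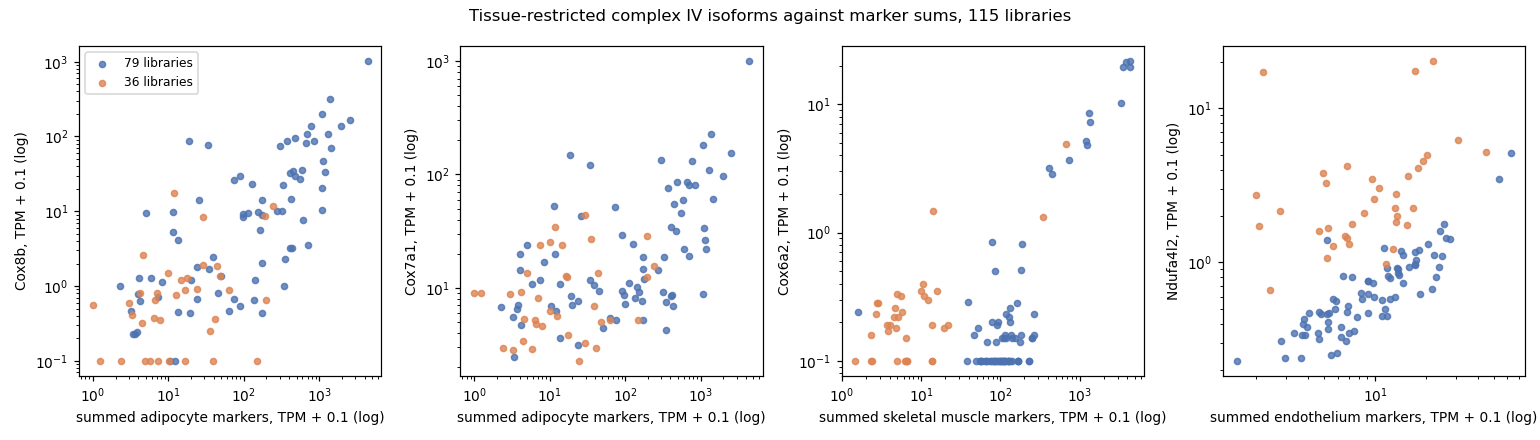
Level of Cox8b and Cox7a1 against the summed adipocyte markers, of Cox6a2 against the summed skeletal muscle markers and of Ndufa4l2 against the summed endothelial markers, on log axes of TPM + 0.1, with 1 point per library and the 79 and 36 libraries in separate colors. With the mean z-score of the same markers, r in the 79 libraries was 0.81 for Cox8b, 0.66 for Cox7a1, 0.98 for Cox6a2 and 0.85 for Ndufa4l2.

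The testis isoforms were low or at 0 in most libraries. Cox8c was above 0 in 6 of the 6 libraries W5000 to W5005, at 0.20 to 1.37 TPM, and in 9 of the others, at up to 0.25 TPM. Cox7b2 was above 0 in 6 of these 6, at 0.27 to 1.59 TPM, and in 24 of the others, at up to 2.72 TPM, so its highest value lay outside the libraries with germ cell transcripts. Cox6b2, the sperm counterpart of Cox6b1, was expressed more widely: it was 1.04 to 3.0 TPM in the 6 libraries and had a median of 1.69 TPM in the others. Its 4 highest values were in the 36 libraries, in W1050 (19.7 TPM), W1790 (18.8 TPM), W1118 (14.2 TPM) and W1915 (11.7 TPM). These 4 libraries had the lowest neuroendocrine sums of the 36.

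The members moved together over the libraries of a set. The median Pearson r over all pairs of tested members was 0.82 in the 79 libraries (0.84 within a complex and 0.81 between complexes) and 0.74 in the 36 (0.74 both within and between). It was 0.54 and 0.56 after rescaling without the 20 most abundant genes, and 0.72 and 0.71 with median-of-ratios scaling. That scaling divides each library by the median, over genes, of the ratio to the gene's geometric mean over libraries. Without W4078 the rescaled value in the 79 was 0.46. The median r of other genes with the mean of the members was 0.53 and 0.33 before rescaling and 0.023 and 0.095 after it. Points share library composition, so these are descriptions without a test. As the members moved together, counts of members by sign or by call are not counts of separate observations. Complex IV had the lowest median r of the 5 complexes, 0.58 in the 79 and 0.55 in the 36. In the 79 libraries Ndufs3, a core subunit of complex I, and Cox6b1 were closest to the mean of the other members, with r = 0.98 and 0.97, and Cox6a2, Cox6b2 and Ndufa4l2 were farthest with r = 0.28, 0.30 and 0.47. In the 36, Ndufa9 was closest (r = 0.96) and Cox8b and Cox6a2 were farthest (r = 0.074 and 0.079).

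Genes outside the list with the most similar pattern were named by their r in TPM with the mean z-score of the members. In the 79 libraries they were Chchd3 (0.965), Cisd1 (0.954), Chchd2 (0.951), Gpx4 (0.948), Taco1 (0.946), Cbr4, Dnaja3, Ptgr2, Pdhb and Sod2 (0.935). In the 36 they were Park7 (0.952), Fh1 (0.951), 2410015M20Rik (0.949), Ap2s1, Ppia, Gpx4, Swi5, Sar1a, Yif1b and Arl1 (0.927). Gpx4, a glutathione peroxidase that reduces lipid peroxides, was in both. After rescaling it was among the 10 of the 79 libraries but not of the 36, and with median-of-ratios scaling in neither.

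Against Mki67 in the 36 libraries, most members were lower where Mki67 was higher. With limma on log2(TPM + 1), 50 of the 80 members fell with Mki67 at an adjusted p below 0.05 over the 14621 genes tested and 0 rose, where 21.5% of all genes fell and 23.3% rose. The slope was negative for 77 of 80 members, with a median of -0.30 per doubling of Mki67 + 1 against -0.014 over all genes. All complexes took part, with 18 of 34 members lower in complex I, 3 of 4 in II, 7 of 9 in III, 10 of 16 in IV and 12 of 17 in V. The members that fell included Ndufb4 and Ndufs8 of complex I, Sdhd, the membrane anchor of complex II, and Cox4i1. After rescaling without the 20 most abundant genes, 41 fell and 1 rose, with a median of -0.18 against 0.069 over all genes (24.1% of genes lower).

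Cox7a1 had the steepest slope. In the 36 libraries it was at 2.17, 7.39 and 43.3 TPM for the lowest, median and highest, at 23.98 TPM in the library with the lowest Mki67 (W370) and at 2.82 TPM in that with the highest. It fell by 56.6% per doubling of Mki67 (slope -1.20 ± 0.20 SE, limma adjusted p = 9.55e-06). Cox7a2, its ubiquitous counterpart, had a slope of -0.15 that did not pass the test (adjusted p = 0.221), and the log2 ratio of Cox7a2 to Cox7a1 rose by 1.05 ± 0.17 per doubling (adjusted p = 1.1e-05). The balance between the counterparts lay further toward Cox7a2 at high Mki67. With 6 other proliferation genes in place of Mki67, the ratio had a slope of 0.28 ± 0.17 (limma adjusted p = 0.218). That slope is per unit of their mean z-score, so its size cannot be set beside that per doubling.

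Uqcr10, a small subunit of complex III, was at 67.7, 132 and 463 TPM and fell by 44.2% per doubling (slope -0.84 ± 0.15, adjusted p = 3.26e-05). Atp5e, the epsilon subunit of ATP synthase, was at 156, 305 and 887 TPM and fell by 35% (-0.62 ± 0.11, adjusted p = 5.43e-05). Atp5h, a stator subunit, was at 95.7, 181 and 364 TPM and fell by 33.6% (-0.59 ± 0.12, adjusted p = 2.35e-04). Each of the 3 was lower in the library with the highest Mki67 than in that with the lowest, with 96.7 against 434 TPM for Uqcr10, 237 against 735 TPM for Atp5e and 152 against 330.0 TPM for Atp5h. Cox8b, at 0, 0.555 and 17.3 TPM for the lowest, median and highest of the 36 libraries, had a slope of -0.83 ± 0.25 (limma adjusted p = 0.00867). The 3 members with a positive slope did not pass the test, namely Ndufab1 (0.045 ± 0.080), the iron-sulfur subunit Ndufs1 (0.050 ± 0.087) and Ndufa4l2 (0.11 ± 0.24).

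This relation depended on Mki67 itself. With the mean z-score of 6 other proliferation genes (Top2a, Cdk1, Ccnb1, Aurka, Bub1 and Plk1) in place of Mki67, 29 members rose and 2 fell, where 24.7% of all genes rose and 2.22% fell, with a median of 0.18 against 0.11 over all genes. The members that rose included Ndufa10 (0.27 ± 0.055, limma adjusted p = 4.06e-04), Ndufv2 (0.28 ± 0.066, limma adjusted p = 0.00206), Cyc1, Atp5f1 and Atp5a1. The 2 that fell were Cox8b and Cox6a2, whose medians in the 36 libraries were 0.555 and 0.09 TPM. Of the 6 other proliferation genes, 3 rose with Mki67 in the 36 libraries. Slopes with the index are per unit of the mean z-score, not per doubling. Uqcr10, Atp5e and Atp5h had positive slopes with the index (0.19, 0.084 and 0.17) that did not pass the test, and that of Cox7a1 was -0.12 (adjusted p = 0.706). In TPM, the direction of the members as a list was thus opposite between the proliferation measures, and the fit with the 6 genes was made in TPM only. The members' share of the TPM without the 20 most abundant genes had r = -0.57 and rho = -0.69 with Mki67. With the mean z-score of the proliferation markers, Mki67 included, that share had r = 0.015 and rho = 0.080, so it was not opposite there. These are descriptions without a test.

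Other quantities moved with Mki67 in the 36 libraries. The mean z-score of the luminal markers had r = -0.69 and rho = -0.62 with it (permutation test, adjusted p = 8e-05 and 3.6e-04 over 48 relations; r = -0.68 without the 2 farthest libraries). The stromal index had r = -0.47 and rho = -0.57 (adjusted p = 0.0118 and 0.0017, permutation test; r = -0.61 without the 2 farthest), and 7 of 8 stromal, 5 of 7 luminal, 4 of 4 immune and 3 of 6 adipocyte markers tested fell with Mki67. With the stromal index added to the model 15 members were lower, where 6.81% of all genes were, and with the luminal index 7 were, where 1.59% of all genes were. Fewer passed. In each fit 76 of 80 slopes were negative, with medians of -0.17 against 0.085 over all genes and -0.18 against 0.10. The members moved together, so these signs are not separate observations. The 7 lower with the luminal index added were Cox7a1, Uqcr10, Atp5e, Atp5h, Sdhd, Ndufb2 and Uqcr11. Without W370 and W4419, the libraries farthest in Mki67, 72 members were lower (31.3% of all genes). The part of the other cell types in the slopes was not tested beyond these fits.

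**Figure D3:**
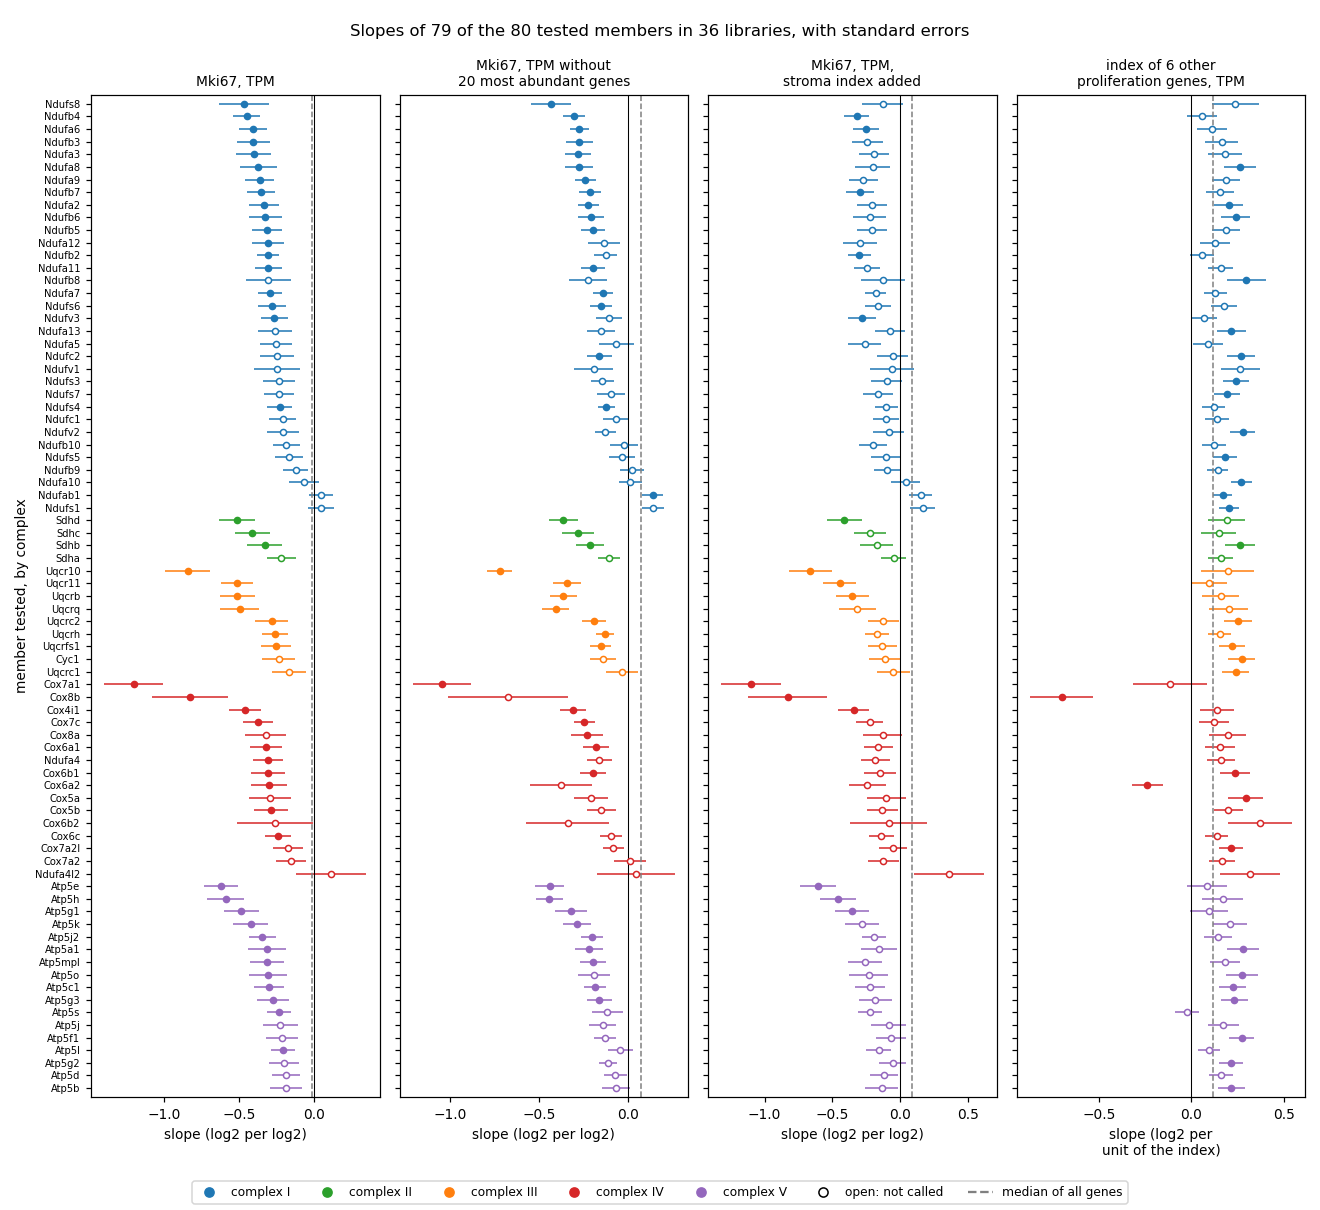
Slope of 79 of the 80 tested members in the 36 libraries, in log2(TPM + 1) per unit of the comparator, in 4 panels: Mki67 in TPM, Mki67 in TPM without the 20 most abundant genes, Mki67 with the stromal index added, and the index of 6 other proliferation genes. Filled points passed the test and the dashed line is the median of all genes. Of all 80 members, 50, 41 and 15 were lower in the first 3 panels. In the last panel 29 were higher, where the direction in TPM was opposite.

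Transcript length also differed between the members and other genes. The median length was 659 bases over the members, 1970 over all genes tested and 5318 for Mki67. Genes shorter than 1000 bases had a median slope of -0.083 with Mki67 in the 36 libraries and 26% of them fell, against a median of 0.31 and 8.96% for genes of 6000 bases or more. Of the 62 tested members shorter than 1000 bases, 41 fell (66.1%).

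The genes that build the complexes moved in both directions. With Mki67 in the 36 libraries, where 21.5% of all genes fell and 23.3% rose, 3 of 14 complex I assembly factors fell (Timmdc1, Ndufaf3 and Ndufaf8), as did 7 of 20 complex IV assembly factors, with Coa3 at -0.71 (adjusted p = 4.48e-05), while Lrpprc, which stabilises mitochondrial mRNAs, rose (0.26, adjusted p = 0.00323). Of the assembly factors of complexes II, III and V, 2 of 4, 1 of 6 and 1 of 3 fell and 1, 1 and 0 rose. Of 12 tricarboxylic acid cycle genes, 4 fell (Suclg2, Fh1, Suclg1 and Ogdh) and 0 rose. Of 12 regulators of mitochondrial biogenesis, Gabpb1, a subunit of the GABP factor (0.38 ± 0.071, adjusted p = 6.89e-05), and the mitochondrial transcription factor Tfb2m (0.23, adjusted p = 0.0296) rose, and Esrra (-0.39, adjusted p = 0.0308) and Tfb1m (-0.42, adjusted p = 0.0072) fell. Tfam (-0.12), Nrf1 (0.16), Gabpa (0.17), Yy1 (0.024), Polrmt (0.13), Esrrg (0.58), Pprc1 (0.23) and Ppargc1a (-0.10) did not pass the test. Cycs, the somatic cytochrome c, fell (-0.29 ± 0.11, adjusted p = 0.0243), and with the index of 6 other proliferation genes it rose (0.23, adjusted p = 0.0176).

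Against Mki67 in the 79 libraries, the members rose with the rest of the genes. With limma on log2(TPM + 1), 74 of 80 members rose and 0 fell, where 72.9% of all genes rose and 1.44% fell, and the median slope was 0.19 over members and 0.18 over all genes. Mki67 was lower where the 20 most abundant genes took more of the TPM (r = -0.63 and rho = -0.63, adjusted p = 8e-05 and 9.6e-05 over 48 relations, permutation test; r = -0.62 without the 2 farthest libraries), and rescaling without them moved the median slope of all genes to 0.038. On that scale 8 members rose and 4 fell (33.4% and 8.21% of all genes), with a median of 0.024. With median-of-ratios scaling, 0 rose and 4 fell (22% and 20% of all genes), so that the direction of the members as a list was not kept between scalings. Mki67 also moved with the immune index (r = 0.60 and rho = 0.62, adjusted p = 8e-05 and 9.6e-05, permutation test). With the stromal index it had r = 0.32 and rho = 0.37 (adjusted p = 0.0118 and 0.00336, permutation test). In TPM with the stromal index added, 71 members rose (63.6% of all genes).

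The 8 members that rose after rescaling were Cox5b, Ndufc2, Ndufa12, Uqcrb, Atp5o, Cox6b1, Atp5mpl and Atp5j2, with slopes of 0.064 to 0.11. Cox5b, a nuclear subunit of complex IV at 36.2, 108.6 and 448 TPM, had a slope of 0.11 ± 0.032 (adjusted p = 0.00325) and 0.29 ± 0.047 before rescaling. Those that fell were Uqcrq (-0.12), Ndufv3 (-0.079), Ndufb2 (-0.069) and Ndufb9 (-0.061), the same 4 that fell with median-of-ratios scaling. Cox7a1 had the largest slope in TPM (0.54 ± 0.17, adjusted p = 0.00342) and did not pass after rescaling (0.30 ± 0.16, adjusted p = 0.130). Its sign in the 79 libraries was opposite to that in the 36, and that difference was not tested. Without W5000 to W5005, 51 members rose in TPM, where 70.5% of all genes did, and after rescaling without these 6 and W4078, 3 rose and 15 fell (35% and 9.06% of all genes). In TPM all 14 complex I assembly factors, 17 of 20 of complex IV and all 12 tricarboxylic acid cycle genes rose, a share to be read against the 72.9% of all genes. Among the regulators 10 of 12 rose in TPM and 5 after rescaling, Tfam (0.18), Nrf1 (0.14), Gabpb1 (0.11), Yy1 (0.10) and Gabpa (0.089).

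**Figure D4:**
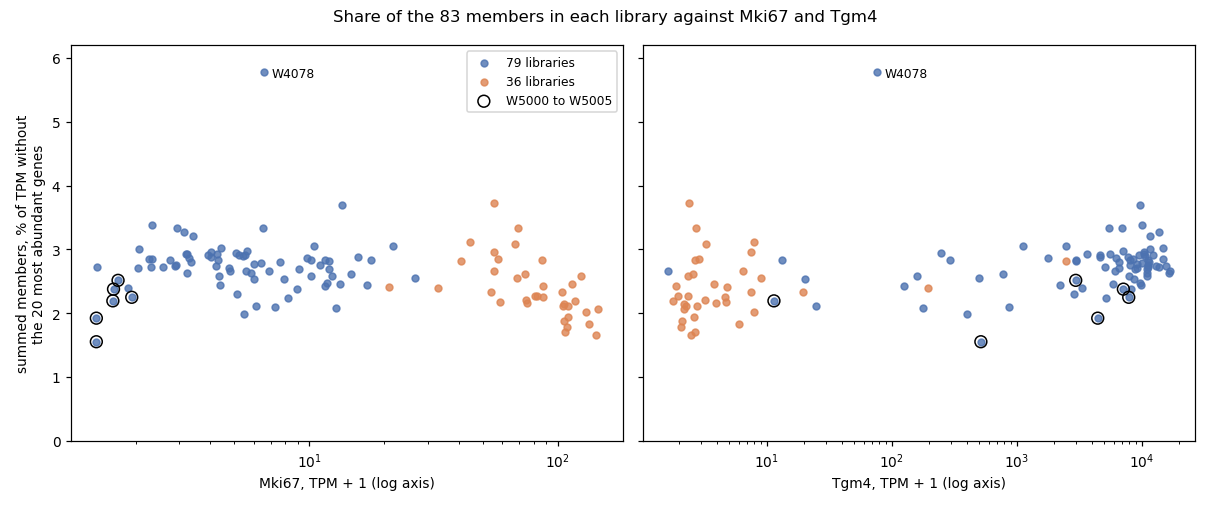
Summed level of the 83 members as a percentage of the TPM left without the 20 most abundant genes, against Mki67 and Tgm4 on log axes of TPM + 1, with 1 point per library, the 79 and 36 libraries in separate colors and W5000 to W5005 circled. The share runs from 1.55% to 5.78%, the latter in W4078, and in the 36 libraries it is lower at high Mki67 (r = -0.57, a description).

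Against Tgm4 in the 79 libraries, few members moved over the whole range. With limma, 8 of 80 members rose and 5 fell, where 12.2% of all genes rose and 26.8% fell, with medians of -0.0074 and -0.016 per doubling of Tgm4. Cox7a2l, which takes part in assembling respiratory supercomplexes, had the steepest rise: it was at 48.4, 142 and 267 TPM over all libraries and rose by 7.62% per doubling (0.11 ± 0.019, adjusted p = 4.31e-06). Uqcrq of complex III, at 14.4, 37.4 and 110.6 TPM, rose by 4.30% (0.061 ± 0.016, adjusted p = 0.00167). The others that rose were Cox8a (0.043), Ndufv3 (0.042), Atp5s (0.040), Atp5g2, Ndufa7 and Ndufb4. Without W1154 and W5003, the libraries farthest in Tgm4, 2 members rose and 17 fell (7.20% and 55.6% of all genes), and Cox7a2l (0.090, adjusted p = 4.26e-04) and Uqcrq (0.064, adjusted p = 0.00356) were the 2 that rose. Without W4078, 15 rose and 5 fell (13.5% and 24.2% of all genes), and without W5000 to W5005, 6 rose and 10 fell (11.2% and 33.1%). After rescaling without the 20 most abundant genes, 20 rose and 8 fell (24.2% and 25.8%).

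The 5 members that fell with Tgm4 were tissue isoforms and 1 low complex I subunit. They were Cox7a1 (-0.20 ± 0.062, adjusted p = 0.00591), Cox6a2 (-0.16 ± 0.044, adjusted p = 0.00304), Cox6b2 (-0.10 ± 0.018, adjusted p = 6.12e-06), Ndufa4l2 (-0.066 ± 0.014, adjusted p = 1.66e-04) and Ndufa11 (-0.052 ± 0.012, adjusted p = 5.04e-04). Of the markers of other cells, 8 of 9 skeletal muscle, 5 of 8 stromal, 4 of 4 immune and 3 of 3 endothelial markers fell with Tgm4 too, while 0 of 6 adipocyte markers did. With the adipocyte and skeletal muscle indices added to the model, 14 members rose and 4 fell (14.2% and 17.7% of all genes), and Cox6a2 had a slope of 0.0030.

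Within the 59 libraries of the high Tgm4 mode, the count of members that rose rested in part on W5000 to W5005. In all 59, 26 members rose and 1, Cox6a2, fell, where 19.5% and 16.3% of all genes did, and 73 of 80 slopes were positive with a median of 0.12 against -0.0014 over all genes. Without W5000 to W5005, which left 55 libraries, 13 rose and 1, again Cox6a2, fell, where 14.1% and 15.3% of all genes did, and 64 slopes were positive with a median of 0.071 against -0.022, so the share of members that rose was near that of all genes. In the 59, those that rose were 6 of 34 members of complex I, 3 of 4 of complex II, 5 of 9 of complex III, 5 of 16 of complex IV and 7 of 17 of complex V. Cox7a2l rose by 0.41 ± 0.079 per doubling (adjusted p = 4.15e-05), Sdhc by 0.29 ± 0.084 (adjusted p = 0.00501), Sdhd by 0.29 ± 0.066 (adjusted p = 5.17e-04) and Uqcrq by 0.29 ± 0.062 (adjusted p = 2.44e-04). In the 55 libraries these 4 passed too, with slopes of 0.29, 0.25, 0.24 and 0.30. In the 20 libraries of the low mode 0 members passed, where 0.192% of all genes rose and 0.0137% fell, and 0 had an unadjusted p below 0.05. W5003 (Tgm4 at 10.5 TPM) and W5005 (517 TPM) lay in the low mode, which was not fitted without them. Among the complex IV assembly factors 10 of 20 rose in the high mode and 0 fell, against 4 and 2 over the 79 libraries, and 6 rose and 1 fell in the 55. Ppargc1a, the PGC-1alpha coactivator, at a median of 0.86 TPM, fell over the 79 libraries (-0.077 ± 0.013, adjusted p = 1.09e-06) and within the high mode (adjusted p = 9.23e-04), where Esrra, Esrrg and Tfb1m rose.

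The supercomplex factor and its paralogs changed in proportion. Cox7a2l lay above Cox7a2 in 80 libraries, and the log2 ratio of Cox7a2 to Cox7a2l ran from -1.60 to 1.33 with a median of -0.56. In the 79 libraries the ratio fell by 0.11 ± 0.012 per doubling of Tgm4 (limma adjusted p = 2.94e-12), by 0.26 in the high mode (adjusted p = 7.8e-05; 0.22 in its 55 libraries without W5000 to W5005, adjusted p = 8.34e-04) and by 0.091 in the low mode (adjusted p = 0.186). The c-subunit genes of ATP synthase, which encode the same mature protein, shifted as well: the ratio of Atp5g2 to Atp5g3 rose by 0.055 (adjusted p = 4.4e-10), by 0.11 in the high mode (adjusted p = 0.00625; 0.092 in the 55, adjusted p = 0.0376) and by 0.070 in the low mode (adjusted p = 0.0211). All 9 isoform ratios tested passed with Tgm4 in the 79 libraries, where 12.2% of single genes rose and 26.8% fell. Among them were Cox8a to Cox8b (0.25, limma adjusted p = 0.0221) and Cox6b1 to Cox6b2 (0.092, limma adjusted p = 3.9e-04). The 9 share genes, such as Cox7a2 and the c-subunit genes, so they are not separate results. Cox6a2, the lower gene of its pair, had a median of 0.06 TPM and was at 0 in 46 libraries. In the 36 libraries 3 ratios passed with Mki67, where 23.3% of single genes rose and 21.5% fell. They were that of Cox7a2 to Cox7a1 given above and those of Atp5g1 to Atp5g2 (-0.29) and to Atp5g3 (-0.21).

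**Figure D5:**
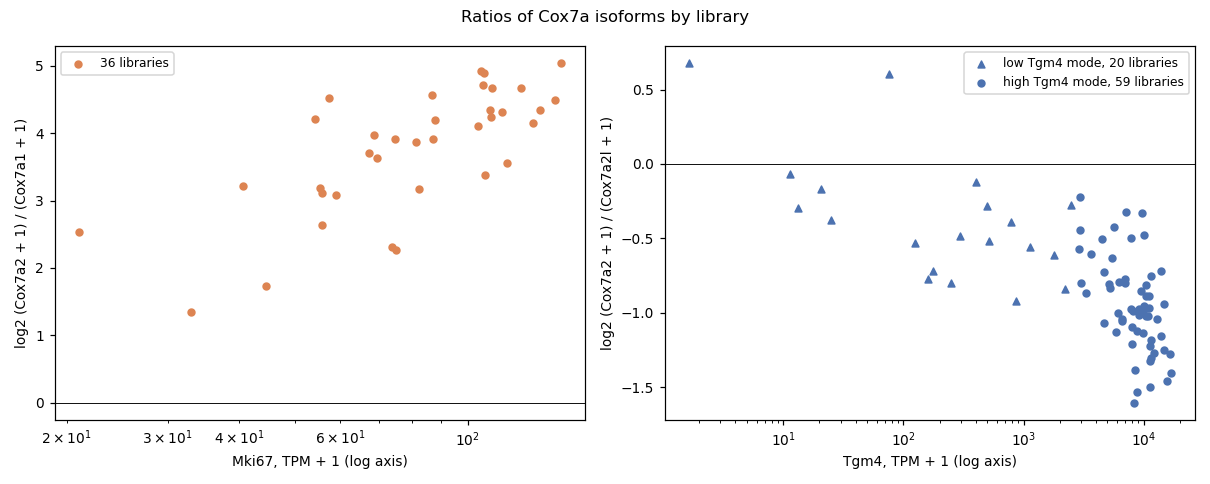
Log2 ratio of Cox7a2 to Cox7a1 against Mki67 in the 36 libraries and of Cox7a2 to Cox7a2l against Tgm4 in the 79, with 1 point per library and the low and high Tgm4 modes as separate marker shapes. The first ratio rises by 1.05 per doubling of Mki67 and the second falls by 0.11 per doubling of Tgm4.

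Against Tgm4 in the 36 libraries, 1 member passed the test. Cox8b rose (0.36 ± 0.069, limma adjusted p = 0.00122), where 2.19% of all genes rose and 0.561% fell, and 3 members had an unadjusted p below 0.05. The median slope was 0.024 over the members and -0.0045 over all genes. The median Tgm4 in these libraries was 1.83 TPM, and W4517 (2469 TPM) and W4419 (195 TPM) lay far above it. Without these libraries 0 members passed (0.0342% of all genes rose), and Cox8b had a slope of 0.37 ± 0.17 (adjusted p = 0.538). The call of Cox8b, though not its slope, thus rested on those libraries. The median of Cox8b in the 36 libraries was 0.555 TPM. The assembly, tricarboxylic acid cycle and regulator lists gave 0 calls with Tgm4 in these 36 libraries.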

How the data were processed

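RNA of snap-frozen (TRAMP x WSB/EiJ) F2 prostates was depleted of ribosomal RNA and sequenced after TruSeq preparation. The authors deposited TPM per gene, made with Bowtie2 against a transcriptome holding C57BL/6 and WSB alleles and with RSEM (CASAVA 1.8.2, Bowtie2 2.2.5, RSEM 1.2.20 and GRCm38 per the submitters' processing notes). TPM keeps no read depth, so no counting error could be given.

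The gene set, the pathway and marker lists and the tests were chosen with earlier results of these data known. Genes averaging 1 TPM or more were tested on log2(TPM + 1) against log2(comparator + 1) with limma 3.58.1 (R 4.3.3) within 79 and 36 libraries separated by the first principal component. A mixture of 2 normals gave the parts and the Tgm4 modes. It was accepted with a fall in BIC of at least 10, Ashman's D of at least 2 and at least 6 libraries on each side. P-values were adjusted by Benjamini and Hochberg over all genes tested and called at 0.05. Slopes are on the log2(TPM + 1) scale and understate changes of low genes. P-values measure the spread between mice, as each library is taken as 1 mouse. Correlations used 100000 permutations, two-sided. Zeros are described, with no mean. Alternatives were a pseudocount of 0.1, no filter, rescaling without the 20 genes of largest share, median-of-ratios scaling, ranks, added covariates, left-out libraries and another proliferation measure. Some were chosen after seeing the data, namely those that leave out W4078, W5000 to W5005 (also within the high Tgm4 mode) or W1050, W1118, W1790 and W1915, add the adipocyte and muscle or the luminal indices, or use 6 other proliferation genes.

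Members were named by rule: the highest and lowest median of each complex, every isoform, the 5 largest called slopes of each sign per comparison, called members opposite to most, the biogenesis regulators, Cycs and the 10 genes most like the members in each part. Ndufb4, Ndufs8, Sdhd, Cox4i1 and other members given as examples or in full lists were chosen after their values were seen. Copies were searched at 95% identity over 80% of the length. Promoters came from RefSeq, 250 bases before to 50 after the start. Some genes, 1 member among them, entered every count but are not reported here. The fit was tested on simulated data. Scripts ran under Python 3.11.15 with scikit-learn 1.9.0, pandas 2.3.3, matplotlib 3.10.9, numpy 2.4.6 and scipy 1.17.1.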

Additional observations from a re-analysis of the deposited data

How the results depend on the processing

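No paired analysis was possible because there is 1 labelled group, so no replicate number is shared. In the 79 libraries, the 74 members higher with Mki67 became 8 after rescaling without the 20 most abundant genes, 0 with median-of-ratios scaling and 3 after rescaling without W4078 and W5000 to W5005, and the 0 lower became 4, 4 and 15, and 2 with no filter. The 8 higher and 5 lower with Tgm4 became 20 and 8 after rescaling, 17 lower and 2 higher without the 2 farthest libraries, 0 and 0 in the low mode and 26 and 1 in the high mode, or 13 and 1 in the high mode without W5000 to W5005. The higher were 22 with median-of-ratios scaling, 14 with both comparators in the model, 15 with the stromal index, 14 with adipocyte and muscle indices, 15 without W4078 and 31 after rescaling without those 7 libraries, and the lower were 10 without W5000 to W5005. In the 36 libraries, the 50 lower with Mki67 became 15 with the stromal index, 7 with the luminal index and 2 with the 6 other proliferation genes, where 29 were higher, and 1 was higher after rescaling. The 1 member higher with Tgm4 became 0 with ranks, both comparators, the 2 farthest libraries left out, adipocyte and muscle indices or the luminal index. The luminal index includes Tgm4 itself, so a Tgm4 call lost with it was partly built in.

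Of isoform ratios in the 79 libraries, the 4 that passed with Mki67 became 0 with a pseudocount of 0.1, rescaling or median-of-ratios scaling, 1 with no filter and 2 with the stromal index or the 6 other genes, and the 9 with Tgm4 became 1 in the low mode and 4 in the high mode without W5000 to W5005. In the 36, the 3 with Mki67 became 5 without W1050, W1118, W1790 and W1915 and 1 with the luminal index, and the 1 with Tgm4 became 2 without those libraries or with median-of-ratios scaling and 0 with a pseudocount of 0.1, ranks, both comparators, the farthest left out, adipocyte and muscle indices or the luminal index. Rescaling moved the median r from 0.821 to 0.544 in the 79 and from 0.739 to 0.557 in the 36, and the median share from 0.902% to 2.67%. Median-of-ratios scaling gave a median r of 0.724 in the 79 and 0.714 in the 36.

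With Mki67 in the 79 libraries, where 0 of the 80 slopes were negative in TPM, 20 were after rescaling, 44 with median-of-ratios scaling, 54 after rescaling without the 7 libraries and 4 without W5000 to W5005. Among the members named by rule, those that turned in sign were, after rescaling, Atp5g1 -0.05, Cox4i1 -0.05, Cox8a -0.02 and Cox6a1 -0.0039, with median-of-ratios scaling Atp5g1 -0.07, Atp5g3 -0.03, Ndufa4 -0.04, Cox4i1 -0.08, Cox8a -0.06, Cox6a1 -0.03 and Atp5g2 -0.02, after rescaling without the 7 libraries Atp5g1 -0.08, Atp5g3 -0.01, Cox7a2l -0.13, Ndufa4 -0.05, Cox4i1 -0.11, Cox7a2 -0.02, Cox8a -0.10, Cox6a1 -0.06 and Atp5g2 -0.05, and without W5000 to W5005 Cox7a2l -0.0016. With Tgm4 they were Cox6a2 0.0030 with adipocyte and muscle indices and Uqcrq -0.0050 in the low mode. In the 36 libraries, where 77 were negative with Mki67, 76 were positive with the 6 other proliferation genes, among those named Atp5g1 0.10, Atp5e 0.08, Atp5g3 0.23, Ndufa4 0.16, Cox4i1 0.14, Atp5h 0.17, Cox6b1 0.23, Cox6a1 0.15 and Uqcr10 0.19. Of the other values for named members, 409 kept their direction and side of the threshold and 87 kept their direction but did not pass. The causes were not tested. TPM keeps no depth, so values near 0 have unknown counting error.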
